A study of Mus musculus with 31 samples.

Results

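The genes described here are the transcriptional coactivators YAP (Yap1) and TAZ (Wwtr1), their DNA-binding partners Tead1, Tead2, Tead3 and Tead4, and the widely used YAP/TAZ target genes Cyr61 (also Ccn1), Ctgf (also Ccn2), Ankrd1 and Amotl2. They were chosen by name and matched by Ensembl identifier in 3 deposited count tables. These 10 genes were found among the 55487 genes of the conditioned-media table, the 56980 of the 2D/3D table and the 56941 of the rescue table. All 10 were also among the genes tested, which numbered 19207, 21367 and 28730.

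The study sequenced RNA of Panc02 cells, a murine pancreatic adenocarcinoma line, in 31 samples. In the conditioned-media table, WT spheroids in Matrigel were kept in control medium (Ctrl), in medium conditioned by untreated macrophages (M0-CM) or in medium conditioned by macrophages given IFNγ and lipopolysaccharide (M1-CM), with 3 samples each. In the 2D/3D table, WT and Cxcl5-/- cells were grown on plastic (2D) or as spheroids in Matrigel (3D), with 3 samples each. In the rescue table all cells were grown in 3D, with 2 WT samples, 2 Cxcl5-/- samples, 3 Cxcl5-/- samples that overexpressed mutant Hif1a (Hif1aOE Cxcl5-/-) and 3 that overexpressed Myc (MycOE Cxcl5-/-). The knockout was made with a single guide RNA in a lentiviral CRISPR vector and the overexpressing lines with a retroviral vector, and whether these lines were clones or pools is not stated in the sources used here. The conditioned media also contained L929 cell supernatant, which was used to grow the macrophages. The labels do not say that samples of a group came from separate cultures, so the p-values measure the spread between these samples, which may be technical. For the rescue samples the labelled cell line name differs from sample to sample, whereas the study's methods name Panc02.

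The Hippo pathway controls YAP and TAZ. Its kinases, Mst (Stk3 and Stk4, with the scaffold Sav1) and Lats (Lats1 and Lats2, with Mob1a and Mob1b), phosphorylate YAP and TAZ and so keep them out of the nucleus. Unphosphorylated YAP and TAZ enter the nucleus, where they bind TEAD factors and switch on genes such as Ctgf and Cyr61, in particular in cells that spread on a stiff surface. RNA levels measure the transcripts of these genes and not the phosphorylation or location of the proteins.

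TEAD factors bind the element GGAATG, which reads CATTCC on the other strand. The 250 bases upstream of RefSeq transcription starts (GRCm38.p6) were searched for it on both strands to show where it lies beside these genes. RefSeq start windows were at hand for 7 of the 10 genes, and Tead1, Tead4 and Ctgf had no entry. These 7 genes had 10 windows, since Wwtr1 has 2 and Tead3 3 annotated starts, some with overlapping windows. The element was in at least 1 window of 6 of the 7 genes, all but Tead2, against 14.4% of 27025 genes, and in 8 of the 10 windows, against 12.6% of 32851 windows. The Cyr61 window, chr3:145649986-145650235 on the minus strand, is given whole because Cyr61 was among the genes that moved most, and the shorter windows show the element in the other genes, with its letters in capitals:
Cyr61: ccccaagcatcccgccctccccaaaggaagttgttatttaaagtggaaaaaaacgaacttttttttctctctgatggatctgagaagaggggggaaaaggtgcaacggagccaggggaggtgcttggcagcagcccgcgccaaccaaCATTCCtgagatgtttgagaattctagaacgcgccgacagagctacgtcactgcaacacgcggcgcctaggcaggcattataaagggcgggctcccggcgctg
Yap1: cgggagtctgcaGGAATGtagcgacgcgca
Wwtr1: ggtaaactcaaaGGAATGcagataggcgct
Ankrd1: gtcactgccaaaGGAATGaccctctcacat
Ankrd1, nearer the start: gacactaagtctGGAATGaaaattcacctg
Amotl2: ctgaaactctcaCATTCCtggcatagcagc
Tead3: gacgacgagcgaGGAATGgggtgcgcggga

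The first letter of the Cyr61 element lay at -103 from the transcription start. The Yap1 window was chr9:8004720-8004749 on the minus strand, with the element at -141, and the Wwtr1 window was chr3:57576029-57576058 on the minus strand, with the element at -136. The Ankrd1 windows were chr19:36120037-36120066 and chr19:36119950-36119979 on the minus strand, with the element at -210 and -123. The Amotl2 window was chr9:102717727-102717756 on the plus strand, with the element at -65, and the Tead3 window was chr17:28350970-28350999 on the minus strand, with the element at -182. A second Tead3 start had the element at -123 and -114, in a window with 217 of its 250 bases within Tead3 exons. All 250 bases of the Ankrd1 window also lay within annotated Ankrd1 exons, and 136 of the 250 bases of the Amotl2 window within Amotl2 exons. A match describes these letters only, and binding was not measured.

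Total counts ranged from 41542533 in a rescue WT library to 78498230 in a Ctrl library, and no gene of the 10 had fewer than 83 counts in any sample. Levels are given as CPM, the count scaled to a common library size after TMM correction. The tables were scaled separately, so levels are compared within a table. Differences were tested with edgeR, and a gene was called at an adjusted p under 0.05. The Cxcl5 transcript was lower in 2D Cxcl5-/- (32.7 to 37.4 CPM) than in 2D WT (45.6 to 49.1 CPM) and lower in rescue Cxcl5-/- (36.6 and 40.2 CPM) than in rescue WT (64.2 and 67.7 CPM). In the third Cxcl5-/- group the order was the reverse, with a higher level (40.9 to 65.5 CPM) than in 3D WT (24.5 to 28.5 CPM). This group is therefore named the 3D libraries labelled Cxcl5-/- throughout. The study checked the knockout by immunoblot for CXCL5 protein, which RNA levels do not measure. Hif1a was at 243 to 296 CPM in Hif1aOE Cxcl5-/-, 241 to 271 CPM in MycOE Cxcl5-/- and 133 to 144 CPM in rescue Cxcl5-/-. The Hif1a transcript thus did not tell the overexpressing lines apart. Myc was at 397 to 548 CPM in MycOE Cxcl5-/-, 23.0 to 26.8 CPM in Hif1aOE Cxcl5-/- and 20.0 to 22.3 CPM in rescue Cxcl5-/-. The 2 rescue WT libraries stood apart, with 35865 and 35921 genes above 3 counts, against 23421 to 26302 in the other rescue libraries. Hif1a and Myc were lower in the 3D libraries labelled Cxcl5-/- (140.0 to 175 CPM and 9.12 to 11.4 CPM) than in 3D WT (336 to 407 CPM and 33.9 to 36.9 CPM), as they were in rescue Cxcl5-/- against rescue WT (in rescue WT, 304 and 324 CPM for Hif1a and 46.1 and 49.3 CPM for Myc).

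Of the epithelial markers, Epcam and Cdh1 were at or near 0 in all groups. The keratins Krt8, Krt18 and Krt19 were present in 3D WT and lower in the 3D libraries labelled Cxcl5-/-. The remaining keratin of the list, Krt7, was higher in 2D Cxcl5-/- (5.93 to 7.09 CPM) than in 2D WT (2.29 to 2.75 CPM). Krt8 was at 485 to 648 CPM in 3D WT and 134 to 156 CPM in the 3D libraries labelled Cxcl5-/-, Krt18 at 317 to 384 CPM and 52.9 to 63.2 CPM, and Krt19 at 36.5 to 50.3 CPM and 0 to 0.397 CPM. The sum of the 6 epithelial markers was 823 to 865 CPM in rescue WT, 258 to 272 CPM in rescue Cxcl5-/-, 687 to 820 CPM in Hif1aOE Cxcl5-/- and 244 to 287 CPM in MycOE Cxcl5-/-. The part of these markers in the results was not tested.

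Ctgf encodes a secreted matricellular protein of the CCN family and showed the widest range of the 10 genes (ENSMUSG00000019997, GRCm38 chromosome 10, 24595442 to 24598683, plus strand). In 2D it was at 56.3, 53.4 and 52.4 CPM in WT and 77.5, 84.3 and 72.8 CPM in Cxcl5-/-. In 3D WT it was at 17.9, 19.5 and 19.8 CPM, below every 2D library. In the 3D libraries labelled Cxcl5-/- it was at 190.0, 188.8 and 205 CPM, above every other library of the table, and no groups overlapped.

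Ctgf therefore fell from 2D to 3D in WT (-1.50 ± 0.08 on the log2 scale, SE, adjusted p = 9.23e-09 by edgeR) and was higher in the 3D libraries labelled Cxcl5-/- than in 2D Cxcl5-/- (1.32 ± 0.08, adjusted p = 1.5e-08 by edgeR). Between the genotypes it was 1.45-fold higher in 2D Cxcl5-/- than in 2D WT (adjusted p = 0.000716 by edgeR) and 10.2-fold higher in the 3D libraries labelled Cxcl5-/- than in 3D WT (log2 fold change 3.35 ± 0.09, adjusted p = 3.11e-11 by edgeR). The genotype difference was larger in 3D than in 2D by 2.82 ± 0.11 on the log2 scale (adjusted p = 7.65e-09 by edgeR). These 3D values rest on samples whose Cxcl5 transcript was higher than in 3D WT, while their Hif1a and Myc levels differed from 3D WT in the same direction as in rescue Cxcl5-/- against rescue WT.

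In the rescue table Ctgf was at 16.1 and 16.1 CPM in WT and at 277.5 and 276.9 CPM in Cxcl5-/-. It was at 9.29, 13.5 and 15.2 CPM in Hif1aOE Cxcl5-/-, all below WT. In MycOE Cxcl5-/- it was at 140.8, 140.4 and 111.5 CPM, between the Cxcl5-/- and WT levels, and no groups overlapped. Ctgf was 17.2-fold higher in rescue Cxcl5-/- than in rescue WT (log2 fold change 4.11 ± 0.21, adjusted p = 1.67e-07), 21.8-fold lower in Hif1aOE Cxcl5-/- than in rescue Cxcl5-/- (-4.45 ± 0.18, adjusted p = 4.86e-08) and 2.12-fold lower in MycOE Cxcl5-/- than in rescue Cxcl5-/- (-1.08 ± 0.16, adjusted p = 0.000255, all by edgeR). It was 10.3-fold higher in MycOE Cxcl5-/- than in Hif1aOE Cxcl5-/- (3.37 ± 0.16, adjusted p = 1.97e-07 by edgeR). The first 3 of these comparisons share the 2 rescue Cxcl5-/- libraries.

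The sum of the fibroblast markers was higher, as was Ctgf, in the 3D libraries labelled Cxcl5-/- than in 3D WT and in rescue Cxcl5-/- than in rescue WT. The sum of the 8 markers of the fibroblast list was 179.6 to 194 CPM in 2D WT and 183 to 197 CPM in 2D Cxcl5-/-, which overlapped, and 164 to 179 CPM in 3D WT and 441 to 490.1 CPM in the 3D libraries labelled Cxcl5-/-. It was 84.2 to 87.0 CPM in rescue WT, 494 to 508 CPM in rescue Cxcl5-/-, 139 to 177 CPM in Hif1aOE Cxcl5-/- and 404 to 440.0 CPM in MycOE Cxcl5-/-, so that Hif1aOE Cxcl5-/- lay above rescue WT, where its Ctgf lay below. In the conditioned-media table it was 427 to 575 CPM, while Ctgf was at 1.53 to 17.9 CPM. In 3D, 7 of the 8 markers were above 3 counts in every library of both genotypes. Pdgfra was at 20.1 to 23.6 CPM in 3D WT and 194 to 225 CPM in the 3D libraries labelled Cxcl5-/-, and Pdgfrb at 83.4 to 94.3 CPM and 192 to 217 CPM. Acta2 was at 7.57 to 10.2 CPM and 37.4 to 45.6 CPM. The defining marker Dcn was at 35.5 to 39.1 CPM in 3D WT and lower, at 1.59 to 4.13 CPM, in the 3D libraries labelled Cxcl5-/-. Lum was also lower there, at 2.55 to 3.30 CPM against 4.93 to 8.21 CPM in 3D WT. Col1a1 and Col1a2 had lower ranges there that overlapped 3D WT (2.08 to 5.43 against 4.74 to 7.83 CPM, and 0.647 to 1.54 against 1.24 to 3.66 CPM). Dcn was higher in rescue Cxcl5-/- (59.4 to 63.4 CPM) than in rescue WT (3.99 to 5.04 CPM), as was Lum (86.7 to 86.9 CPM against 2.21 to 3.02 CPM). Thy1 was at or near 0 in all of these groups. The part of these markers in the Ctgf result was not tested. The methods describe cultures of Panc02 cells only. In bulk samples, fewer cells that express a gene and less RNA per cell cannot be told apart.

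Cyr61 encodes another matricellular CCN protein and is often read together with Ctgf (ENSMUSG00000028195, chromosome 3, 145646976 to 145649981, minus strand). In 2D it was at 39.5, 30.5 and 34.6 CPM in WT and 56.9, 59.9 and 61.7 CPM in Cxcl5-/-. The 3D levels were 82.3, 77.3 and 85.1 CPM in WT and 29.0, 25.0 and 23.8 CPM in the 3D libraries labelled Cxcl5-/-. The groups did not overlap, and the order in 3D was the reverse of that of Ctgf. Cyr61 rose from 2D to 3D in WT (log2 fold change 1.23 ± 0.10, adjusted p = 4.06e-07) and was lower in the 3D libraries labelled Cxcl5-/- than in 2D Cxcl5-/- (-1.20 ± 0.10, adjusted p = 3.43e-07, both by edgeR). It was 1.71-fold higher in 2D Cxcl5-/- than in 2D WT (adjusted p = 0.000238) and 3.14-fold lower in the 3D libraries labelled Cxcl5-/- than in 3D WT (-1.65 ± 0.10, adjusted p = 4.16e-08, both by edgeR), and these differences differed by -2.42 ± 0.14 (adjusted p = 2.15e-07 by edgeR).

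Among the rescue groups, Cyr61 was at 113 and 93.9 CPM in WT and 47.2 and 54.6 CPM in Cxcl5-/-. It was at 49.2, 64.0 and 53.5 CPM in Hif1aOE Cxcl5-/- and 53.0, 33.7 and 37.4 CPM in MycOE Cxcl5-/-. WT lay above all other rescue libraries, and the remaining groups overlapped. Cyr61 was 2.03-fold lower in rescue Cxcl5-/- than in rescue WT (log2 fold change -1.02 ± 0.20, adjusted p = 0.00189 by edgeR). The difference of Hif1aOE Cxcl5-/- from rescue Cxcl5-/- was 0.13, with an interval of 2 SE from -0.23 to 0.49, and that of MycOE Cxcl5-/- was -0.30, from -0.66 to 0.06, with adjusted p of 0.626 and 0.208 by edgeR. Where Ctgf had 21.8-fold less transcript in Hif1aOE Cxcl5-/-, no change in Cyr61 was called. Between MycOE Cxcl5-/- and Hif1aOE Cxcl5-/-, Cyr61 was not called by the main test. It was called lower in MycOE Cxcl5-/- with library totals (-0.54, adjusted p = 0.0208 by edgeR). The same held with the long-gene covariate explained with Tead1 (-0.58, adjusted p = 0.000936) and without MycOE Cxcl5-/- replicate 1 (-0.64, adjusted p = 0.0082, both by edgeR).

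Per kilobase of exon the Ctgf level was 1.10 times that of Cyr61 in 2D WT, 0.929 times in 2D Cxcl5-/-, 0.165 times in 3D WT and 5.34 times in the 3D libraries labelled Cxcl5-/- (group means). In the rescue table it was 0.111 times in WT, 3.86 times in Cxcl5-/-, 0.161 times in Hif1aOE Cxcl5-/- and 2.30 times in MycOE Cxcl5-/-. Over the 12 samples of the 2D/3D table, the genes with a log2 CPM pattern most like that of Ctgf, of 14443 genes with a mean of at least 50 counts, were Tgm2 (Pearson's r 0.991), Chd3 (0.987) and Mcur1 (0.982). Those most like Cyr61 were Cdc16 (0.967), Vopp1 (0.960) and Slc3a2 (0.960). These correlations describe 12 libraries in 4 groups.

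**Figure D1:**
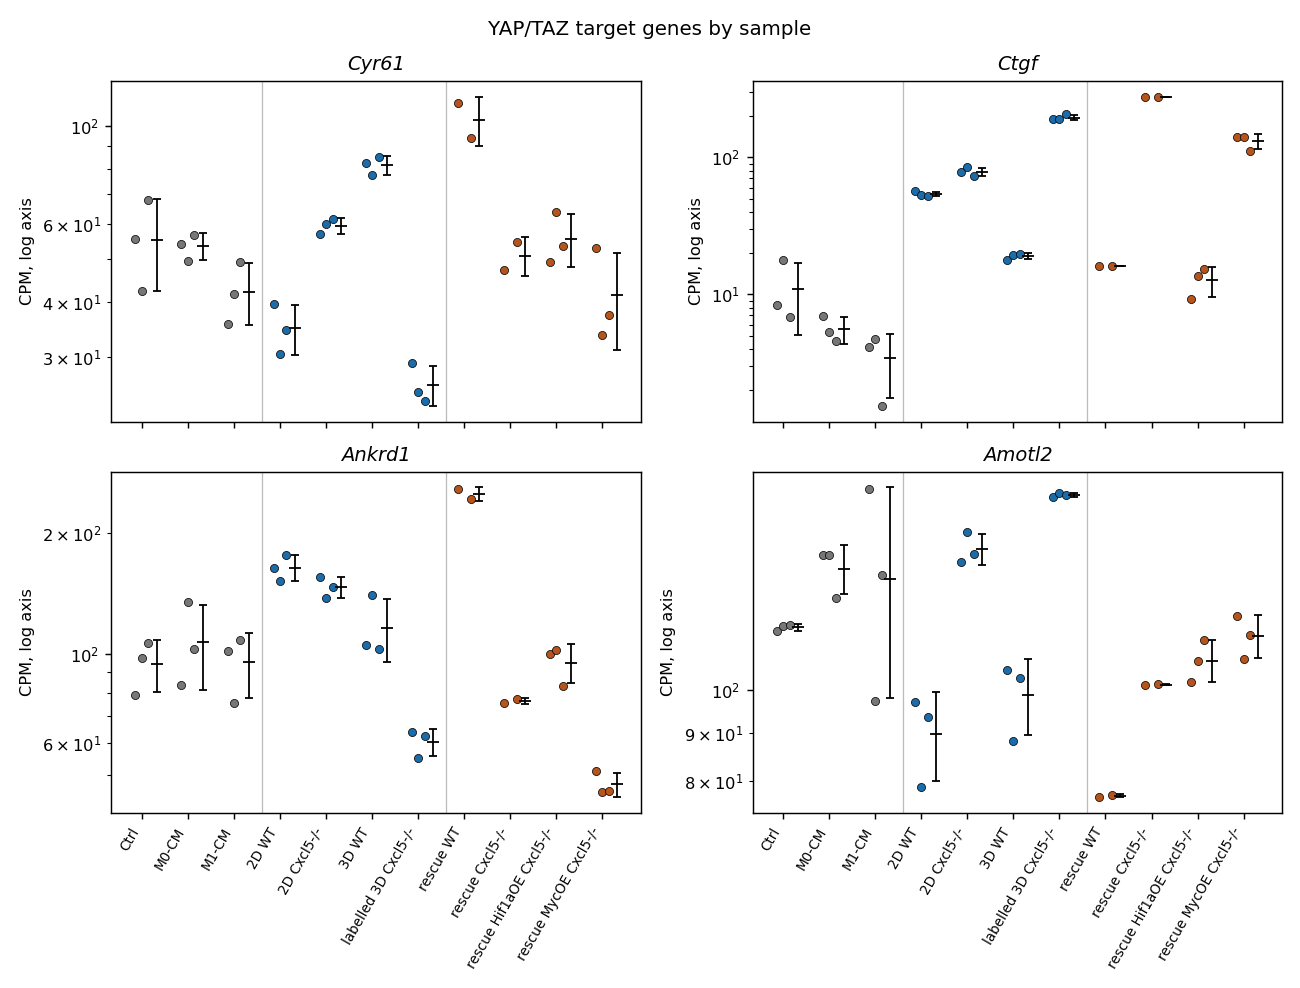
CPM (log axis) of Cyr61, Ctgf, Ankrd1 and Amotl2 in each of the 31 samples, by group; each point is a sample, the bar beside the points is the mean ± SD (n = 3, or n = 2 for rescue WT and rescue Cxcl5-/-), and grey lines separate the 3 tables. In 3D, Ctgf is highest in the 3D libraries labelled Cxcl5-/- (188.8 to 205 CPM) where Cyr61 is lowest (23.8 to 29.0 CPM).

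Ankrd1, an ankyrin-repeat protein of muscle and stressed cells, followed Cyr61 rather than Ctgf in its 3D genotype difference (ENSMUSG00000024803, chromosome 19, 36111961 to 36120099, minus strand). It was at 164, 152 and 176 CPM in 2D WT and 155, 138 and 147 CPM in 2D Cxcl5-/-, which overlapped. The 3D levels were 105, 140 and 103 CPM in WT and 63.9, 55.1 and 62.5 CPM in the 3D libraries labelled Cxcl5-/-, which did not overlap. Ankrd1 fell from 2D to 3D in WT (log2 fold change -0.50 ± 0.12, adjusted p = 0.00313) and was lower in the 3D libraries labelled Cxcl5-/- than in 2D Cxcl5-/- (-1.28 ± 0.12, adjusted p = 7.48e-07, both by edgeR). The genotype difference was -0.16 in 2D (adjusted p = 0.548) and -0.94 ± 0.12 in 3D (adjusted p = 2.25e-05), and these differed by -0.78 ± 0.16 (adjusted p = 0.00343, all by edgeR). With scaling by library totals the last value was -0.42, with an adjusted p of 0.104.

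Among the rescue groups, Ankrd1 was at 256 and 242 CPM in WT and 75.3 and 77.3 CPM in Cxcl5-/-. It was at 99.8, 102 and 83.3 CPM in Hif1aOE Cxcl5-/- and 51.2, 45.4 and 45.5 CPM in MycOE Cxcl5-/-. No groups overlapped, with WT highest and MycOE Cxcl5-/- lowest. Ankrd1 was 3.26-fold lower in rescue Cxcl5-/- than in rescue WT (log2 fold change -1.71 ± 0.11, adjusted p = 9.15e-07) and 1.61-fold lower in MycOE Cxcl5-/- than in rescue Cxcl5-/- (-0.69 ± 0.10, adjusted p = 0.000189, both by edgeR). It was 1.25-fold higher in Hif1aOE Cxcl5-/- than in rescue Cxcl5-/- (0.32 ± 0.10, adjusted p = 0.0291 by edgeR), a call that was lost with rescue Cxcl5-/- replicate 1 or 2 or Hif1aOE Cxcl5-/- replicate 1 or 2 left out (0.32, 0.35, 0.28 and 0.27) and with library totals (0.09). MycOE Cxcl5-/- was 2.01-fold below Hif1aOE Cxcl5-/- (-1.01 ± 0.09, adjusted p = 1.67e-05 by edgeR).

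Amotl2, an angiomotin-family protein that binds YAP and restrains it, was higher in the groups labelled Cxcl5-/- in both culture forms (ENSMUSG00000032531, chromosome 9, 102716672 to 102733418, plus strand). It was at 97.0, 78.7 and 93.6 CPM in 2D WT and 137, 147 and 139 CPM in 2D Cxcl5-/-. The 3D levels were 105, 88.2 and 103 CPM in WT and 160, 162 and 161 CPM in the 3D libraries labelled Cxcl5-/-. Within each culture form the genotypes did not overlap, whereas 2D WT and 3D WT did. The genotype difference was 0.65 ± 0.09 on the log2 scale in 2D (adjusted p = 0.000496) and 0.71 ± 0.09 in 3D (adjusted p = 3.78e-05), and the interval of 2 SE for the difference between them ran from -0.21 to 0.32 (adjusted p = 0.811, all by edgeR).

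Among the rescue groups, Amotl2 was at 76.9 and 77.3 CPM in WT and 101 and 101 CPM in Cxcl5-/-. It was at 102, 107 and 113 CPM in Hif1aOE Cxcl5-/- and 120, 108 and 114 CPM in MycOE Cxcl5-/-. WT was lowest, and the overexpressing groups overlapped each other. Amotl2 was higher in rescue Cxcl5-/- than in rescue WT (log2 fold change 0.39 ± 0.09, adjusted p = 0.00378 by edgeR), while neither overexpressing line passed the test against rescue Cxcl5-/- (0.08, adjusted p = 0.424, and 0.17, adjusted p = 0.104, by edgeR).

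Yap1 encodes YAP (ENSMUSG00000053110, chromosome 9, 7931999 to 8004596, minus strand), and its transcript stayed within a narrow range. It was at 92.2, 86.6 and 86.2 CPM in 2D WT and 90.4, 85.8 and 85.3 CPM in 2D Cxcl5-/-. In 3D it was at 78.8, 66.5 and 73.8 CPM in WT and 75.2, 93.2 and 84.5 CPM in the 3D libraries labelled Cxcl5-/-. The genotypes overlapped in both culture forms, and 3D WT lay below 2D WT. Yap1 was lower in 3D WT than in 2D WT by the main test (log2 fold change -0.27 ± 0.09, adjusted p = 0.0241 by edgeR). That call was lost with each of 2D WT replicates 1, 2 and 3, 2D Cxcl5-/- replicate 2 and 3D WT replicates 2 and 3 left out (-0.27 to -0.19), and with DESeq2 (-0.22), DESeq2 size factors (-0.21) and no filter (-0.28). The 3D genotype difference of 0.21 did not pass (adjusted p = 0.0788 by edgeR) but passed with library totals (0.61, adjusted p = 0.000975), no filter (0.29, adjusted p = 0.0414) and DESeq2 (0.23, adjusted p = 0.0481).

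Rescue levels of Yap1 were 70.1 and 77.2 CPM in WT and 103 and 105 CPM in Cxcl5-/-. It was at 91.5, 86.1 and 86.7 CPM in Hif1aOE Cxcl5-/- and 84.3, 83.2 and 83.8 CPM in MycOE Cxcl5-/-. Both overexpressing lines lay between the WT and Cxcl5-/- levels without overlap. Yap1 was higher in rescue Cxcl5-/- than in rescue WT (log2 fold change 0.50 ± 0.08, adjusted p = 0.00056 by edgeR) and lower in Hif1aOE Cxcl5-/- (-0.24 ± 0.07, adjusted p = 0.0244) and MycOE Cxcl5-/- (-0.31 ± 0.07, adjusted p = 0.00515) than in rescue Cxcl5-/-. The Hif1aOE Cxcl5-/- call was lost with either rescue WT or either rescue Cxcl5-/- replicate left out (-0.24 to -0.21) and with the replicate block (-0.23, adjusted p = 0.059), and the MycOE Cxcl5-/- call with either rescue Cxcl5-/- replicate left out (-0.31 and -0.29).

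Wwtr1 encodes TAZ, the close relative of YAP (ENSMUSG00000027803, chromosome 3, 57455649 to 57575910, minus strand), and its transcript was highest in 3D WT. It was at 132, 133 and 132 CPM in 2D WT and 131, 125 and 129 CPM in 2D Cxcl5-/-. In 3D, Wwtr1 was at 173, 167 and 183 CPM in WT and 116, 104 and 109 CPM in the 3D libraries labelled Cxcl5-/-, above and below all 2D libraries. The log2 fold change was 0.40 ± 0.07 from 2D to 3D in WT (adjusted p = 0.000437) and -0.67 ± 0.07 between the genotypes in 3D (adjusted p = 6.04e-06, both by edgeR). The genotype difference in 3D differed from that in 2D by -0.62 ± 0.10 (adjusted p = 0.000604 by edgeR). With library totals the first and last of these were 0.18 (adjusted p = 0.0542) and -0.25 (adjusted p = 0.0803). The lower level in the 3D libraries labelled Cxcl5-/- than in 2D Cxcl5-/- (-0.22 ± 0.07, adjusted p = 0.0173 by edgeR) was no longer called without 2D Cxcl5-/- replicate 1 or 3 or replicate 2 of the 3D libraries labelled Cxcl5-/- (-0.19, -0.22 and -0.18), or with library totals (-0.07).

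Rescue levels of Wwtr1 were 125 and 136 CPM in WT and 107 and 107 CPM in Cxcl5-/-, and at 89.0 to 111 CPM in the 6 libraries of the overexpressing lines. It was lower in rescue Cxcl5-/- than in rescue WT (log2 fold change -0.29 ± 0.10, adjusted p = 0.0365 by edgeR), and this call was lost with any 1 of the 4 libraries left out (-0.36 to -0.23) and with library totals (-0.25). Neither overexpressing line passed the test against rescue Cxcl5-/- (adjusted p = 0.572 and 0.189 by edgeR). Per kilobase of exon, Wwtr1 was above Yap1 in every group. The ratio of Wwtr1 to Yap1 was 2.90 in 2D WT, 4.64 in 3D WT and 2.55 in the 3D libraries labelled Cxcl5-/-, and 3.44 in rescue WT and 1.99 in rescue Cxcl5-/- (group means).

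Of the TEAD factors, which carry YAP and TAZ to DNA, Tead2 showed the clearest genotype difference in 3D (ENSMUSG00000030796, chromosome 7, 45215753 to 45233644, plus strand). It was at 28.9, 20.7 and 29.9 CPM in 2D WT and 35.9, 35.1 and 34.5 CPM in 2D Cxcl5-/-. In 3D, Tead2 was at 17.7, 12.5 and 15.3 CPM in WT and 47.5, 38.9 and 45.9 CPM in the 3D libraries labelled Cxcl5-/-. These were the lowest and the highest groups of the table, and no groups overlapped. Tead2 fell from 2D to 3D in WT (log2 fold change -0.80 ± 0.15, adjusted p = 0.000531) and was 2.90-fold higher in the 3D libraries labelled Cxcl5-/- than in 3D WT (1.54 ± 0.15, adjusted p = 2.35e-06, both by edgeR). The genotype difference of 0.41 in 2D did not pass (adjusted p = 0.129) and differed from that in 3D by 1.13 ± 0.21 (adjusted p = 0.00133, both by edgeR). With a block for the replicate number the 2D difference passed (0.43, adjusted p = 0.0312 by edgeR). The 3D libraries labelled Cxcl5-/- differed from 2D Cxcl5-/- by 0.33 (adjusted p = 0.0676 by edgeR), which passed under 7 alternatives, with 0.47 for library totals and 0.84 with the long-gene level of each library, explained with Tead1, as a covariate.

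Rescue levels of Tead2 were 10.8 and 11.7 CPM in WT and 41.1 and 47.1 CPM in Cxcl5-/-. It was at 40.2, 39.2 and 39.0 CPM in Hif1aOE Cxcl5-/- and 54.7, 45.3 and 43.3 CPM in MycOE Cxcl5-/-. All 8 Cxcl5-/- libraries, with or without overexpression, lay above both WT libraries. Tead2 was 3.92-fold higher in rescue Cxcl5-/- than in rescue WT (log2 fold change 1.97 ± 0.13, adjusted p = 7.48e-07 by edgeR). The differences of Hif1aOE Cxcl5-/- and MycOE Cxcl5-/- from rescue Cxcl5-/- were -0.16, with an interval of 2 SE from -0.38 to 0.06, and 0.12, from -0.10 to 0.33 (adjusted p = 0.272 and 0.423 by edgeR).

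Tead1, the most widely expressed TEAD gene, has 13570 bases of exon sequence, the most of the 10 genes (ENSMUSG00000055320, chromosome 7, 112679318 to 112906807, plus strand). It was at 63.9, 105 and 56.6 CPM in 2D WT and 51.3, 59.3 and 75.8 CPM in 2D Cxcl5-/-. In 3D it was at 64.0, 72.5 and 73.8 CPM in WT and 113, 190 and 155 CPM in the 3D libraries labelled Cxcl5-/-, which lay above all others. It was 2.18-fold higher in the 3D libraries labelled Cxcl5-/- than in 3D WT (log2 fold change 1.12 ± 0.23, adjusted p = 0.00124) and 2.46-fold higher than in 2D Cxcl5-/- (1.30 ± 0.23, adjusted p = 0.000271), and the genotype difference in 3D differed from that in 2D by 1.40 ± 0.32 (adjusted p = 0.0058, all by edgeR).

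Rescue levels of Tead1 were 91.2 and 91.8 CPM in WT and 301 and 307 CPM in Cxcl5-/-. It was at 101, 82.5 and 123 CPM in Hif1aOE Cxcl5-/- and 71.4, 88.4 and 85.5 CPM in MycOE Cxcl5-/-. Only the Cxcl5-/- libraries without overexpression stood above the rest. The log2 fold change was 1.73 ± 0.16 for rescue Cxcl5-/- against rescue WT (adjusted p = 1.04e-05), -1.58 ± 0.14 for Hif1aOE Cxcl5-/- against rescue Cxcl5-/- (adjusted p = 8.29e-06) and -1.90 ± 0.14 for MycOE Cxcl5-/- against rescue Cxcl5-/- (adjusted p = 1.72e-06, all by edgeR).

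The level of long genes moved with Tead1. For each library it was taken as the median log2 deviation, from the mean over the table, of the longest 10% of the protein-coding genes tested. In the 2D/3D table it was 0.06 to 0.25 in the 3D libraries labelled Cxcl5-/- and -0.02 to 0.05 in 3D WT. In the rescue table it was 0.15 to 0.20 in Cxcl5-/-, 0.03 to 0.06 in WT, -0.14 to 0.00 in Hif1aOE Cxcl5-/- and -0.20 to -0.02 in MycOE Cxcl5-/-. The share of counts in the nuclear RNAs Malat1 and Neat1 was also highest in the same groups, at 1.71% to 2.58% in the 3D libraries labelled Cxcl5-/- against 1.01% to 1.48% in 3D WT, and 5.04% and 5.06% in rescue Cxcl5-/- against 0.912% to 2.33% in the other rescue libraries. With the long-gene level as a covariate, chosen after seeing the data, the difference of Tead1 between the 3D libraries labelled Cxcl5-/- and 3D WT was 0.47 (adjusted p = 0.00123) and that from 2D Cxcl5-/- was 0.18 (adjusted p = 0.312, call lost), both by edgeR. The difference between the genotype effects was 0.68 (adjusted p = 0.00102 by edgeR). In that fit the rescue differences remained called, at 1.46, -1.12 and -1.32 in the order above. In both tables the long-gene level of these Cxcl5-/- libraries lay above that of all other groups without overlap. The fit therefore cannot fully separate that level from the group, and its part in the Tead1 differences was not tested.

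**Figure D2:**
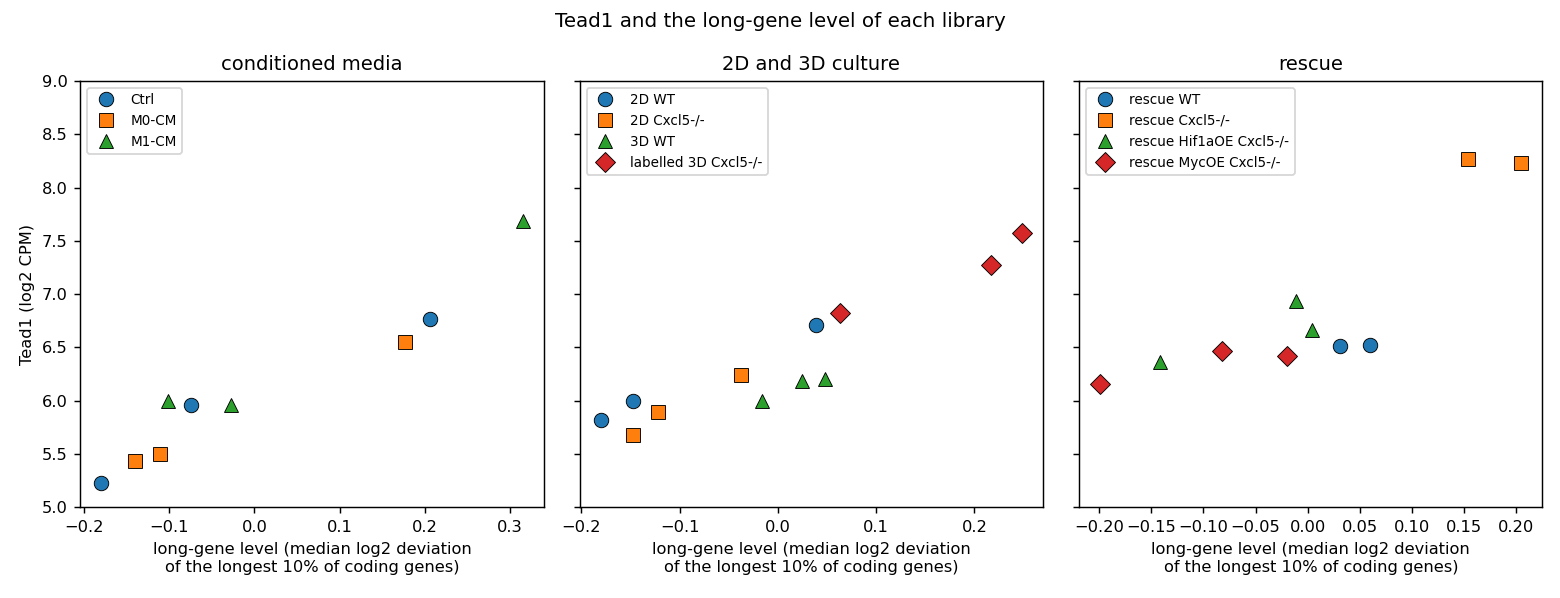
Tead1 (log2 CPM) against the long-gene level of each library (median log2 deviation of the longest 10% of coding genes) in the 3 tables; each point is a sample and its symbol gives the group. In each table the libraries with the highest Tead1 are among those with the highest long-gene level, such as rescue Cxcl5-/- with Tead1 at 301 and 307 CPM.

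Tead4 was lower in 3D than in 2D in both genotypes (ENSMUSG00000030353, chromosome 6, 128224288 to 128300823, minus strand). It was at 11.2, 11.6 and 10.7 CPM in 2D WT and 12.7, 12.3 and 12.9 CPM in 2D Cxcl5-/-. In 3D it was at 7.46, 8.92 and 6.09 CPM in WT and 4.59, 5.81 and 4.89 CPM in the 3D libraries labelled Cxcl5-/-. Every 3D library lay below every 2D library. The log2 fold change from 2D to 3D was -0.58 ± 0.14 in WT (adjusted p = 0.00423) and -1.31 ± 0.14 between the Cxcl5-/- groups (adjusted p = 3.79e-06, both by edgeR). The 3D genotype difference was -0.55 ± 0.14 (adjusted p = 0.00628) and differed from that in 2D by -0.73 ± 0.20 (adjusted p = 0.016, both by edgeR). With library totals these last values were -0.17 (adjusted p = 0.481) and -0.36 (adjusted p = 0.323).

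Rescue levels of Tead4 were 11.4 and 10.6 CPM in WT and 4.65 and 3.09 CPM in Cxcl5-/-. It was at 8.08, 8.16 and 9.25 CPM in Hif1aOE Cxcl5-/- and 6.22, 6.20 and 7.26 CPM in MycOE Cxcl5-/-. No groups overlapped, and both overexpressing lines lay between Cxcl5-/- and WT. Tead4 was lower in rescue Cxcl5-/- than in rescue WT (log2 fold change -1.50 ± 0.20, adjusted p = 0.000144) and higher than rescue Cxcl5-/- in Hif1aOE Cxcl5-/- (1.14 ± 0.19, adjusted p = 0.0006) and MycOE Cxcl5-/- (0.76 ± 0.19, adjusted p = 0.00666, all by edgeR). The MycOE Cxcl5-/- call was lost without rescue Cxcl5-/- replicate 2 (0.51) and with library totals (0.43).

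Tead3 was between 12.7 and 29.0 CPM in all 31 samples (ENSMUSG00000002249, chromosome 17, 28331671 to 28350817, minus strand) and passed no test in the 2D/3D table. In the rescue table it was at 15.0 and 12.7 CPM in WT, 21.7 and 21.8 CPM in Cxcl5-/-, 20.3, 17.9 and 21.8 CPM in Hif1aOE Cxcl5-/- and 16.3, 15.5 and 14.7 CPM in MycOE Cxcl5-/-. It was higher in rescue Cxcl5-/- than in rescue WT (log2 fold change 0.65 ± 0.13, adjusted p = 0.00207 by edgeR) and lower in MycOE Cxcl5-/- than in rescue Cxcl5-/- (-0.49 ± 0.12, adjusted p = 0.00544 by edgeR). Its difference between MycOE Cxcl5-/- and Hif1aOE Cxcl5-/- (-0.37 ± 0.10, adjusted p = 0.0289 by edgeR) was lost with rescue Cxcl5-/- replicate 1 or 2, Hif1aOE Cxcl5-/- replicate 1 or 3 or MycOE Cxcl5-/- replicate 2 or 3 left out (-0.37 to -0.30).

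Per kilobase of exon, the make-up of the TEAD transcripts differed between groups. Tead1 and Tead2 together made up most of the TEAD sum. Tead4 was 15.8% ± 3.06 of it in 3D WT (SD, n = 3) and 5.81% ± 0.320 in the 3D libraries labelled Cxcl5-/- (n = 3), while Tead2 was 24.1% ± 3.70 and 38.3% ± 7.81. In the rescue table, Tead1 was 47.5% of the sum in WT, 62.4% in Cxcl5-/-, 35.4% in Hif1aOE Cxcl5-/- and 30.0% in MycOE Cxcl5-/-, and Tead4 was 21.5% in WT and 3.00% in Cxcl5-/- (group means). The sum was 13.1 CPM per kb in 3D WT and 24.4 CPM per kb in the 3D libraries labelled Cxcl5-/-, and 14.2 CPM per kb in rescue WT, 35.9 in rescue Cxcl5-/-, 21.1 in Hif1aOE Cxcl5-/- and 20.1 in MycOE Cxcl5-/-. Exon lengths were those of GENCODE vM21, and isoform use was not measured.

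**Figure D3:**
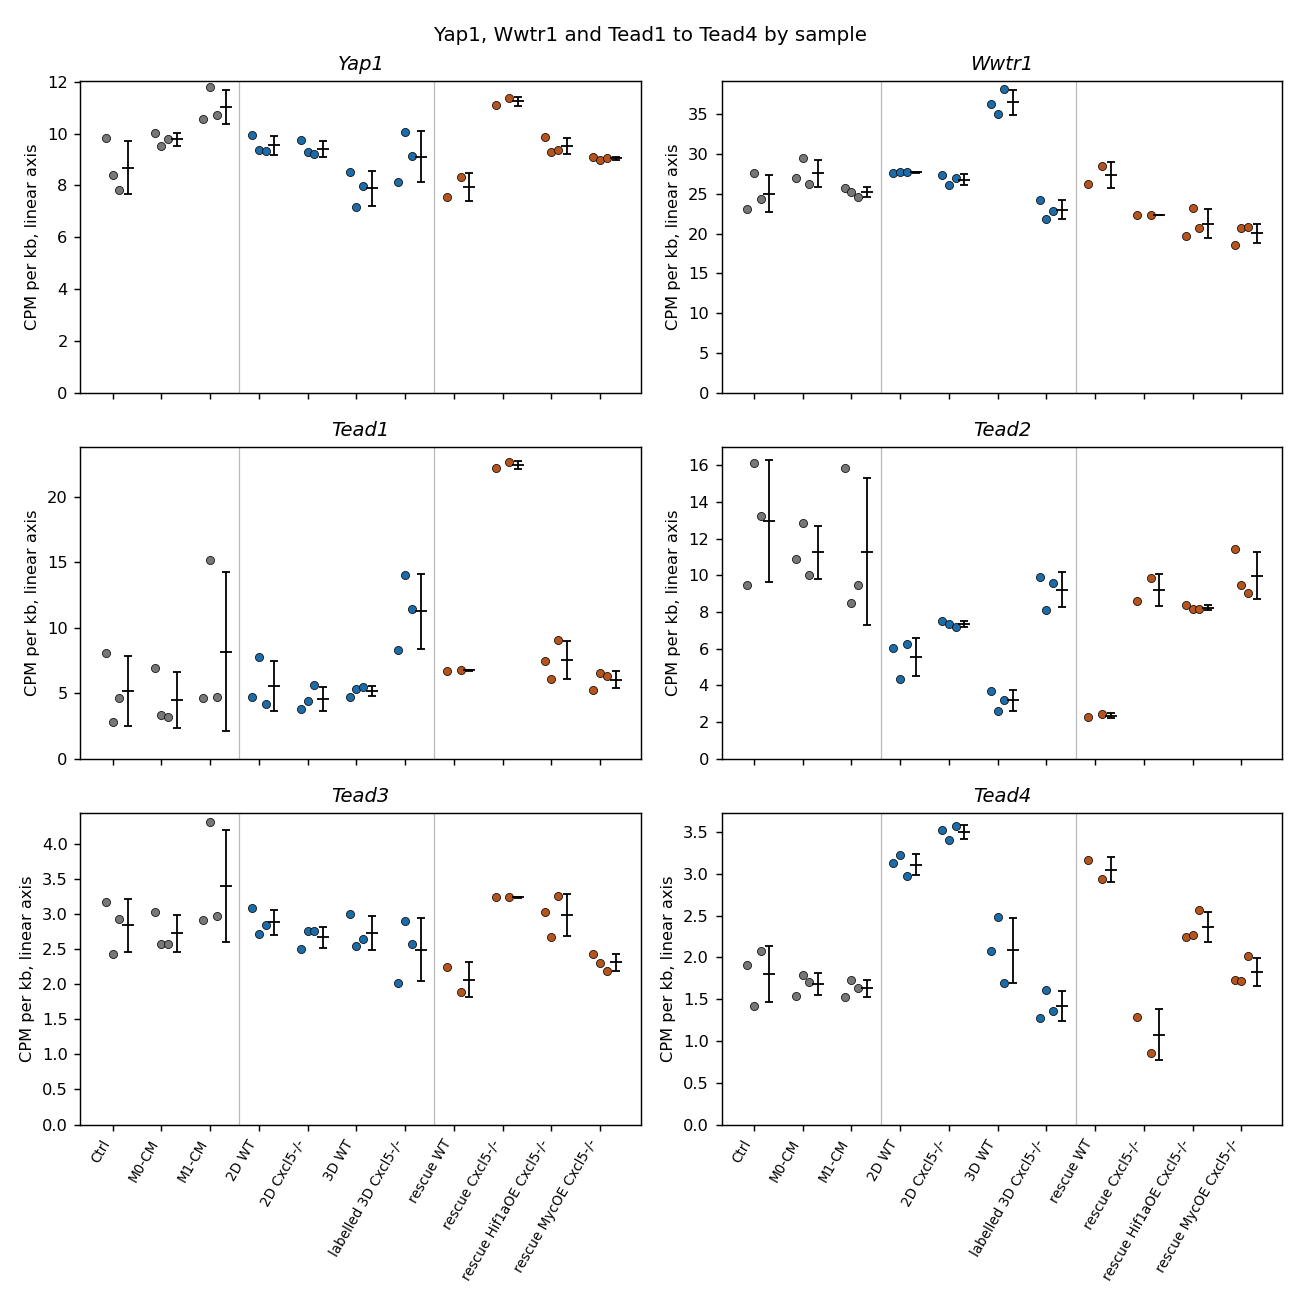
CPM per kb of exon (linear axis from 0) of Yap1, Wwtr1 and Tead1 to Tead4 in each of the 31 samples, by group; each point is a sample, the bar beside the points is the mean ± SD (n = 3, or n = 2 for rescue WT and rescue Cxcl5-/-), and grey lines separate the 3 tables. Tead2 is lowest in 3D WT and rescue WT within their tables, and Tead1 is highest in rescue Cxcl5-/-.

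Counting over the 10 genes, 2 rose and 5 fell from 2D to 3D in WT, where 22.2% of all genes tested were called higher and 22% lower. Between the 3D libraries labelled Cxcl5-/- and 2D Cxcl5-/-, 2 were higher and 4 lower, against 28.7% and 28.2% of all genes. Between 2D Cxcl5-/- and 2D WT, 3 were higher (Cyr61, Ctgf and Amotl2) and 0 lower by edgeR, against 3.86% and 3.17% of all genes. At an unadjusted p under 0.05 there were 4 of the 10, where 2012 of the 21367 genes tested were higher and 1892 lower. DESeq2 called 3 of the 10, and over all genes 1177 higher and 861 lower. Between the 3D libraries labelled Cxcl5-/- and 3D WT, 4 were higher and 4 lower, against 19.7% and 25.3%. For the genotype effect in 3D minus that in 2D, 3 were higher and 4 lower, against 11.1% and 16.1%. Of these, Ctgf and Cyr61 passed in opposite directions.

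Between rescue Cxcl5-/- and rescue WT, 6 of the 10 genes were higher and 4 lower, against 17.6% and 24.3% of all genes. In Hif1aOE Cxcl5-/- against rescue Cxcl5-/-, 2 were higher and 3 lower, against 20.5% and 15%. In MycOE Cxcl5-/- against rescue Cxcl5-/-, 1 was higher and 5 lower, against 21.6% and 18%. Between MycOE Cxcl5-/- and Hif1aOE Cxcl5-/-, 1 was higher and 2 lower, against 9.54% and 9.73%. Over all genes tested, the median difference on the log2 scale was -0.30 for rescue Cxcl5-/- against rescue WT, 0.16 for Hif1aOE Cxcl5-/- and 0.11 for MycOE Cxcl5-/- against rescue Cxcl5-/-. The rescue WT libraries held counts for many genes that were at the floor in rescue Cxcl5-/-. The 7194 protein-coding genes with at most 3 counts in both rescue Cxcl5-/- libraries had a median of 3.60 and 3.68 counts per kb in rescue WT. For the length of each of the 10 genes this comes to between 0.0897% and 4.24% of its count. The comparisons of the overexpressing lines kept all 14 calls with both rescue WT libraries left out, an alternative chosen after seeing the data.

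**Figure D4:**
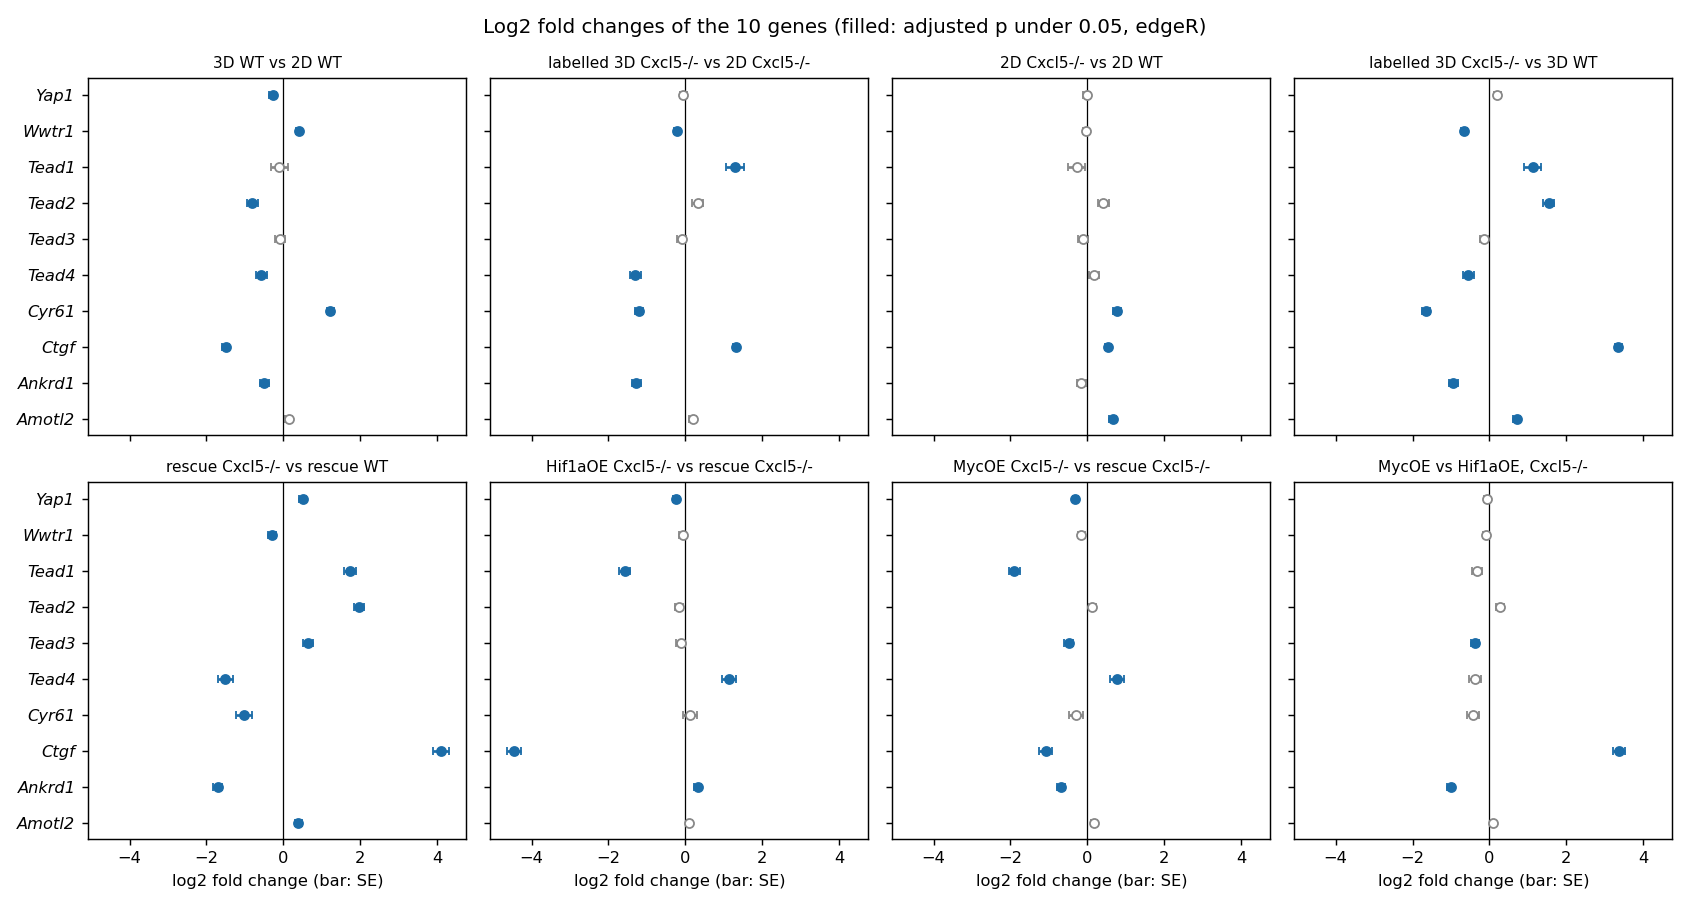
Log2 fold changes of the 10 genes (points) with their SE (bars) in 8 comparisons of the 2D/3D and rescue tables, edgeR; filled points have an adjusted p under 0.05 and open grey points do not. Ctgf has the largest values, from -4.45 in Hif1aOE Cxcl5-/- to 4.11 in rescue Cxcl5-/-, while Amotl2 stays between 0.08 and 0.71.

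Scaling by library totals in place of TMM shifted all genes together, and the share of higher and lower calls with it. The median over all genes became -0.21 for 3D WT against 2D WT, 0.35 for the 3D libraries labelled Cxcl5-/- against 3D WT and 0.32 for the difference of the genotype effects. Calls were 3563 higher and 6712 lower in the first of these (main 4752 and 4707), 7671 and 2445 in the second (main 4218 and 5397) and 4585 and 1359 in the third (main 2376 and 3431). They were 4335 and 5604 for Hif1aOE Cxcl5-/- (main 5904 and 4308) and 4271 and 7482 for MycOE Cxcl5-/- against rescue Cxcl5-/- (main 6205 and 5167), and 1982 and 3504 between these lines (main 2742 and 2796). Without the filter on low counts, the difference of the genotype effects had 2322 higher and 2115 lower calls. None of the 55 calls of the 10 genes changed direction under any scaling.

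In the conditioned-media table none of the 10 genes passed the test. Against Ctrl, 0 were called with M1-CM or M0-CM by edgeR and 0 by DESeq2, and 0 between M1-CM and M0-CM by either tool. At an unadjusted p under 0.05 there were 2, 0 and 0 of them. Of the 19207 genes tested, 586 were higher and 317 lower at such a p with M1-CM than with Ctrl. The counts were 412 and 157 with M0-CM, and 309 and 189 with M1-CM against M0-CM. By edgeR at an adjusted p under 0.05, 0.0156% of all genes tested were higher and 0% lower with M1-CM than with Ctrl. The shares were 0% and 0% with M0-CM, and 0.0156% and 0% with M1-CM against M0-CM. DESeq2 called 74 genes higher and 31 lower for M1-CM against Ctrl and 22 and 12 for M1-CM against M0-CM, where edgeR called 3 and 0 in each. The comparisons share their control samples.

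The 2 of the 10 genes at an unadjusted p under 0.05 for M1-CM against Ctrl were Ctgf and Yap1. Ctgf was at 8.38, 17.9 and 6.77 CPM in Ctrl, 6.93, 5.29 and 4.53 CPM with M0-CM and 4.15, 4.68 and 1.53 CPM with M1-CM. M1-CM lay below Ctrl without overlap, while M0-CM overlapped both. The log2 fold change against Ctrl was -1.67 ± 0.47 for M1-CM (adjusted p = 0.787) and -0.98 ± 0.46 for M0-CM (adjusted p = 1, both by edgeR). Yap1 was at 90.8, 77.6 and 72.5 CPM in Ctrl, 92.9, 88.3 and 90.6 CPM with M0-CM and 97.8, 109 and 99.1 CPM with M1-CM, and its difference between M1-CM and Ctrl was 0.35 ± 0.13 (adjusted p = 0.965 by edgeR). M1-CM lay above both other groups.

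The other targets overlapped between M1-CM and Ctrl. Cyr61 was at 55.6, 42.3 and 68.1 CPM in Ctrl, 54.1, 49.4 and 56.8 CPM with M0-CM and 35.6, 41.7 and 49.2 CPM with M1-CM. Ankrd1 ranged from 75.3 to 134 CPM and Amotl2 from 97.3 to 164 CPM over the 9 libraries. Wwtr1 ranged from 110 to 141 CPM, and Tead4 from 5.12 to 7.45 CPM. Tead1 and Tead2 varied within groups: Tead1 was at 109, 37.5 and 62.4 CPM in Ctrl and 62.4, 206 and 64.0 CPM with M1-CM, and Tead2 at 45.4, 77.3 and 63.4 CPM in Ctrl and 76.0, 40.7 and 45.3 CPM with M1-CM. In each group the library with the highest Tead1 was the one with the highest long-gene level (0.21 for Ctrl, 0.18 for M0-CM, 0.31 for M1-CM).

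The other genes of the pathway were read from 5 lists. Of the 7 Hippo core kinases and scaffolds, 3 were higher and 2 lower in the 3D libraries labelled Cxcl5-/- than in 3D WT, where 19.7% of all genes were higher and 25.3% lower, with a list median of 0.04 against -0.04 over all genes. Mob1a and Sav1, cofactors of Lats and Mst, fell by 0.74 and 0.66 on the log2 scale, while the kinase Lats2 rose by 0.43 and Mob1b by 0.40. Between rescue Cxcl5-/- and rescue WT, Lats2 (0.78) and Stk3 (0.42) were higher and Sav1 (-0.65) and Mob1a (-0.48) lower. Lats2, itself a known YAP/TAZ target that feeds back on the pathway, was lower in MycOE Cxcl5-/- than in rescue Cxcl5-/- (-0.84), as was Lats1 (-0.57), while Sav1 (0.57) and Mob1a (0.44) were higher. In Hif1aOE Cxcl5-/- it was also lower (-0.43), with Stk3 (-0.87), while Mob1a (0.43) and Sav1 (0.24) were higher.

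Of the 14 upstream regulators tested, 7 were higher and 2 lower in the 3D libraries labelled Cxcl5-/- than in 3D WT, against the same 19.7% and 25.3% of all genes. The lower ones were Amotl1, an angiomotin relative of Amotl2 (-1.99), and Frmd6, a FERM protein that promotes Lats activity (-1.32), and the higher ones included Nf2, the tumour suppressor merlin (0.69), and Wwc1 (0.66). From 2D to 3D in WT, Amotl1 (1.59) and Frmd6 (0.84) rose, and 8 of the 14 fell, among them Wwc1 (-0.97), where 22.2% of all genes rose and 22% fell. Between rescue Cxcl5-/- and rescue WT, 8 were higher and 3 lower, against 17.6% and 24.3% of all genes, with Amotl1 again lower (-1.40). Amotl1 was higher in Hif1aOE Cxcl5-/- than in rescue Cxcl5-/- (2.54), as was Ajuba, a LIM protein that binds Lats (1.19), while the kinases Taok1 (-0.87) and Taok3 (-1.06) were lower. In MycOE Cxcl5-/-, Taok1 (-1.06) and Taok3 (-1.70) were also lower, and Wwc1 (1.10) and Ajuba (0.73) were higher.

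Other YAP/TAZ readout genes numbered 17 tested in the 2D/3D table and 18 in the rescue table. This list was written from memory of the field and not taken from a published set. Lats2 and Ptpn14 stand in it and also in the kinase and upstream regulator lists above, so their calls count in both places. In the 3D libraries labelled Cxcl5-/- against 3D WT, 6 were higher and 6 lower, against 19.7% and 25.3% of all genes. Nt5e, the ectonucleotidase CD73, was at a mean of 3.94 CPM there and 57.8 CPM in 3D WT (log2 fold change -3.87), and the arf GTPase activator Asap1 was higher (1.21). F3, tissue factor, was lower (-1.29), as was Tgfb2 (-1.33). From 2D to 3D in WT, 6 readout genes rose and 3 fell, against 22.2% and 22% of all genes, with Nt5e (2.64), F3 (2.17) and Ccdc80 (2.95) among those that rose. Between rescue Cxcl5-/- and rescue WT, 6 were higher and 2 lower, against 17.6% and 24.3% of all genes. Asap1 (1.94) and Gadd45a (1.42) were higher, and F3 (-2.28) and Nt5e (-1.84) were the lower ones. In Hif1aOE Cxcl5-/- and in MycOE Cxcl5-/- against the shared rescue Cxcl5-/- libraries, 2 were higher and 10 lower in each, where 20.5% and 21.6% of all genes were higher and 15% and 18% lower, with list medians of -0.43 and -0.68 against 0.16 and 0.11 over all genes. Among the lower ones were Tgfb2 (-1.83) and Asap1 (-1.47) in Hif1aOE Cxcl5-/- and Ccdc80 (-4.41) and Nt5e (-2.64) in MycOE Cxcl5-/-.

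Of the other CCN genes, Wisp2 (Ccn5) was at 0.696 CPM in 2D WT, 18.0 CPM in 3D WT and 101 CPM in the 3D libraries labelled Cxcl5-/- (group means). Its log2 fold change was 4.72 from 2D to 3D in WT and 2.49 between the 3D genotypes, and 2.12 between rescue Cxcl5-/- and rescue WT. Wisp1 (Ccn4) was higher by 0.90 and 1.87 in the same genotype comparisons and lower than in rescue Cxcl5-/- by 1.21 in Hif1aOE Cxcl5-/- and by 2.08 in MycOE Cxcl5-/-. In 2D Cxcl5-/- against 2D WT, 2 of the 3 other CCN genes tested were already called higher and 0 lower, against 3.86% and 3.17% of all genes. For the genotype effect in 3D minus that in 2D, 0 were called higher and 0 lower, against 11.1% and 16.1%. Nov (Ccn3) was listed at 0 in the 3D libraries labelled Cxcl5-/- and at a mean of 0.171 CPM in 3D WT. Of the VGLL genes, whose products compete for TEAD, Vgll4 rose from 2D WT to 3D WT (0.46) and was higher in rescue Cxcl5-/- than in rescue WT (0.55). Vgll3 was higher in MycOE Cxcl5-/- (mean 0.976 CPM) than in rescue Cxcl5-/- (mean 0.0623 CPM). In the conditioned-media table no gene of the 5 lists was called by edgeR. At an unadjusted p under 0.05 there were 2 of the 17 readout genes tested for M1-CM against Ctrl and 1 for M1-CM against M0-CM. The other lists had 0. Of the 19207 genes tested, 586 were higher and 317 lower at such a p in the first comparison and 309 and 189 in the second. All log2 fold changes in the paragraphs on these lists had an adjusted p under 0.05 by edgeR.

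Overlapping annotation may limit some of these values. The spans of Ctgf, Tead1, Tead2, Tead4, Wwtr1 and Yap1, introns included, overlap a gene on the opposite strand, such as Cd37 for Tead2. The Tead1 span also overlaps the miRNA gene Gm44462 on the same strand. Whether exons overlap was not tested. The libraries were stranded, but whether the counting used the strand is not stated in the sources used here.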

How the data were processed

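RNA of 31 Panc02 samples was read from 3 count tables. The authors made TruSeq stranded total RNA libraries, sequenced them on a NovaSeq and, per the submitters' processing notes, used HISAT2, StringTie and mm10 (GRCm38). They deposited raw gene counts, which are not normalized. The annotation release and the strand setting of the counting are not given in the sources used here. In the study, DESeq2 was the test used.

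Groups and replicate numbers follow the labels. Deviations of same-numbered samples from their group means correlated above 0.1 in all 3 pairs only for Ctrl and M0-CM (0.21 to 0.55), as a feature of the data, since the labels name no shared batch. Genes were kept with filterByExpr, scaled by TMM and tested with the quasi-likelihood F test of edgeR 4.0.16 (limma 3.58.1, R 4.3.3), fitting every group of a table together. P-values were adjusted by the Benjamini-Hochberg method across all genes tested (threshold 0.05). SE was computed as |log2 fold change| / sqrt(F), and intervals are ± 2 SE. A gene with 3 counts or fewer was taken as at the floor. Exon lengths and positions came from GENCODE vM21, and upstream sequence from RefSeq. The test was checked on simulated counts. Tables were handled with pandas 2.3.3.

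The 10 genes and the lists were chosen with earlier results of these data known. All 10 genes were named with their levels. Of each list, the rule allowed up to 4 called genes with the largest absolute log2 fold change in a comparison, of which part is named. Cxcl5, Hif1a and Myc were read beside the labels, and the 3 genes most correlated with Ctgf and with Cyr61 over 12 samples were named. Alternatives were DESeq2 1.42.0, DESeq2 size factors, library totals, no filter, only the groups compared, the replicate block and each sample left out. The long-gene covariate, leaving out the library with the highest long-gene level of each conditioned-media group and leaving out both rescue WT libraries were added after seeing the data. Depth ranged from 41542533 to 78498230 counts per sample, and the spread between replicates sets the precision.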

Additional observations from a re-analysis of the deposited data

Results flagged for a closer look

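The genotype difference (Cxcl5-/- minus WT) differed between 3D and 2D for 7 of the 10 genes by edgeR's test of the difference itself, where the 3D Cxcl5-/- samples are the libraries labelled so. Of all genes tested, 11.1% were called higher and 16.1% lower by this test. It was larger in 3D by 2.82 ± 0.11 on the log2 scale (SE) for Ctgf (adjusted p = 7.65e-09), by 1.40 ± 0.32 for Tead1 (adjusted p = 0.0058) and by 1.13 ± 0.21 for Tead2 (adjusted p = 0.00133). It was lower in 3D for Cyr61 (-2.42 ± 0.14, adjusted p = 2.15e-07), Ankrd1 (-0.78 ± 0.16, adjusted p = 0.00343), Tead4 (-0.73 ± 0.20, adjusted p = 0.016) and Wwtr1 (-0.62 ± 0.10, adjusted p = 0.000604). With library totals, Ankrd1, Tead4 and Wwtr1 were no longer called (adjusted p = 0.104, 0.323 and 0.0803 by edgeR). The 10 genes then had 5 higher and 1 lower call, where 4585 of the 21367 genes tested were called higher and 1359 lower in the same fit. Ctgf and Cyr61, both read as YAP/TAZ targets, thus differed in opposite directions.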

How the results depend on the processing

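Of the 55 calls of the 10 genes, 40 held under every alternative run for them and with every sample left out, and 0 changed direction. DESeq2 kept 54, DESeq2 size factors 53, library totals 46, no filter 49, the replicate block 54 and the long-gene covariate 47 of 55, and the fit of only the groups compared kept 48 of 48. The covariate ended the calls of Wwtr1 in the 3D libraries labelled Cxcl5-/- against 2D Cxcl5-/- (-0.16) and in rescue Cxcl5-/- against rescue WT (-0.28), of Tead1 in the first of these (0.18), of Yap1 (-0.20) and Ankrd1 (0.08) in Hif1aOE Cxcl5-/- and of Yap1 (-0.27), Tead3 (-0.45) and Tead4 (1.10) in MycOE Cxcl5-/-. Without the filter, Yap1 in Hif1aOE Cxcl5-/- (-0.22), Tead3 between the overexpressing lines (-0.37), the Tead4 difference of genotype effects (-0.65) and Wwtr1 in rescue Cxcl5-/- against rescue WT (-0.28) and in the 3D libraries labelled Cxcl5-/- against 2D Cxcl5-/- (-0.14) were also not called. Same-numbered Ctrl and M0-CM samples correlated at 0.21 to 0.55, and their comparison had 0 genes called with and without the replicate block. Elsewhere the replicates share only a number, with correlations from -0.33 to 0.32, and the block left 1 gene called in M1-CM against Ctrl and 1 in M1-CM against M0-CM (main 3 and 3). Among the 10 genes the block ended the Yap1 call in Hif1aOE Cxcl5-/- (-0.23) and added Tead2 in 2D Cxcl5-/- against 2D WT (0.43) and in the 3D libraries labelled Cxcl5-/- against 2D Cxcl5-/-. DESeq2 called 105 genes for M1-CM against Ctrl, 22 for M0-CM against Ctrl and 34 for M1-CM against M0-CM. For M0-CM against Ctrl (main 0), library totals called 1, only the groups compared 2 and the covariate 1. The covariate called 5 genes for M1-CM against Ctrl (4 higher and 1 lower), 6420 for the 3D libraries labelled Cxcl5-/- against 2D Cxcl5-/- (main 12171), 4984 for Hif1aOE Cxcl5-/- (main 10212) and 4635 for MycOE Cxcl5-/- (main 11372) against rescue Cxcl5-/-, and 3 of the 10 genes rather than 5 for Hif1aOE Cxcl5-/-. Amotl2 in MycOE Cxcl5-/- against rescue Cxcl5-/-, not called, went from 0.17 to -0.17 with library totals. The cause was not tested. With a sample left out, genes called ranged from 1 to 5 for M1-CM against Ctrl, 0 to 2 for M0-CM against Ctrl, 1 to 6 for M1-CM against M0-CM and 7487 to 13620 for rescue Cxcl5-/- against rescue WT (7882 and 7908 without WT replicate 1 or 2, 7536 and 7487 without Cxcl5-/- replicate 1 or 2, main 12048), and the 10 genes called for Hif1aOE Cxcl5-/- from 3 to 5, with 3 without either rescue Cxcl5-/- replicate. Leaving out the library with the highest long-gene level of each conditioned-media group left 0 of the 10 genes called and 2, 0 and 2 genes in all for M1-CM against Ctrl, M0-CM against Ctrl and M1-CM against M0-CM. Rescue WT and Cxcl5-/- had 2 samples each, which limits those comparisons.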
